A study of Mus musculus with 10 samples.

Results

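Expression of 7 chemokine receptor genes was followed in microglia of the midbrain (Mdb) and the striatum (Str), out of 53715 genes counted in each library. The 7 genes are Ccr1, Ccr2, Ccr7, Ccrl2, Cxcr2, Cxcr4 and Cxcr6, receptors that leukocytes are known to carry. No value enters the rule that names them, but they were chosen with earlier results of these data known. Brains came from untreated male C57BL/6 mice aged 3 months, perfused with cold saline, and the cells of each region were pulled out with magnetic beads against CD11b, a surface protein of microglia that monocytes, neutrophils and NK cells also carry. All groups shared this strain, age and treatment, so region and cohort were the only labelled differences. Both regions were taken from the same mice, and the labels do not say which libraries share a mouse, so the tests below are unpaired. A pilot cohort gave 2 midbrain and 2 striatum libraries, and a second cohort gave another 2 and 2. The remaining 2 of the 10 libraries carry a title and a file label that name different regions, and they enter no comparison here.

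Chemokine receptors are G protein-coupled receptors that sense gradients of small secreted proteins and steer migrating leukocytes. Resident microglia are best known for Cx3cr1, whereas Ccr2 is classically a receptor of inflammatory monocytes, Cxcr2 of neutrophils, and Ccr7 of lymphocytes and dendritic cells on their way to lymph nodes. Bulk RNA of CD11b-purified cells holds the transcripts of every cell caught on the beads, so a higher level may reflect more cells of a type or more RNA per cell, and these cannot be told apart here.

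Reads of the assigned libraries totalled 575709 to 8463782, a 14.7-fold span, and the shallowest library was striatum replicate 3 of the second cohort. Levels are given as CPM, which sets counts against library size with edgeR's TMM factors, and a floor of 3 counts separated a measured level from 0. It lay at 0.35 CPM in the deepest library and at 5.14 CPM in the shallowest and covers counting error only. Homeostatic microglia markers were abundant everywhere, with a summed level of 12300 to 15200 CPM in midbrain and 17600 to 23000 CPM in striatum. Markers of other cells were present too, and their values are given beside the receptors below.

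Regional differences were tested with voom and limma, within each cohort at an unadjusted p under 0.01 and in a joint fit with the cohort as covariate at a Benjamini-Hochberg adjusted p under 0.05 over all genes. A gene is named as called where it passed the cutoff of its fit, and the p printed is the adjusted one. Of the 7 receptors, 6 had enough reads to be tested in each fit, and Cxcr6 did not. In the pilot cohort 4 of the 6 were called higher in the midbrain (Ccr1, Ccr2, Cxcr2 and Cxcr4), where 2.09% of all 14972 genes were. The receptors called in the second cohort were Ccr1, Ccr2, Ccrl2, Cxcr2 and Ccr7, against 2.88% of 13486 genes, but Ccr7 entered that fit only through its midbrain reads. In the joint fit 3 of the 6 passed (Ccr1, Ccr2 and Cxcr2), against 0.975% of 14053 genes. These 3 were also the ones called within both cohorts, as were 1.18% of the 13210 genes tested in both. None of the 6 was called lower, where 0.548%, 0.593% and 0.0854% of genes were in the 3 fits. The median log2 fold change of the 6, midbrain over striatum, was 1.67 in the pilot cohort, 2.37 in the second and 2.09 in the joint fit, beside 0.018, -0.001 and 0.044 over all genes tested. With Ccr7 set to the ratio of its midbrain mean to the floor, given below, the median of the second cohort was 2.00.

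**Figure D1:**
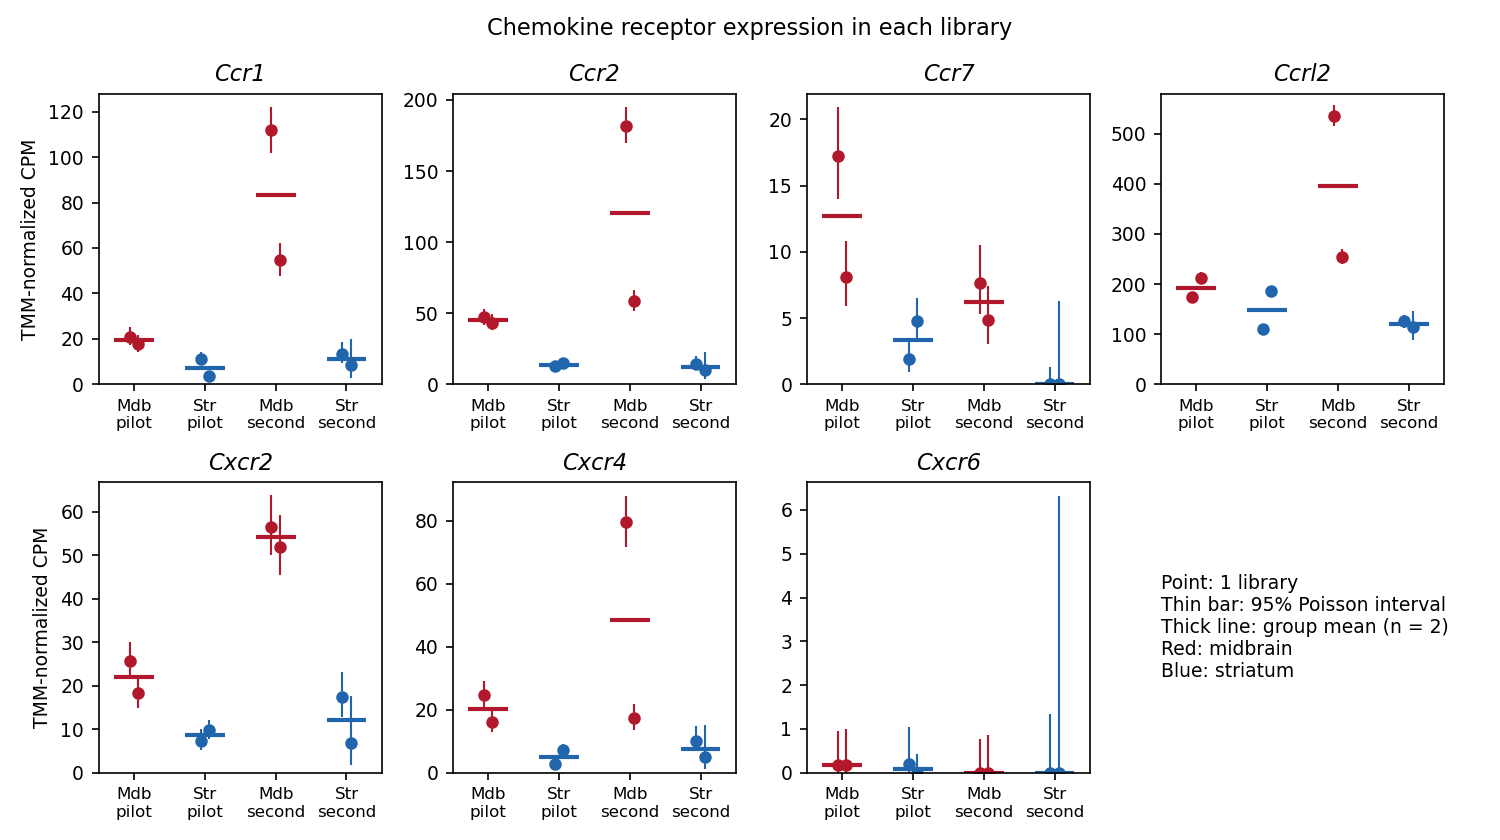
TMM-normalized CPM (y axis, from 0, a separate scale per gene) of the 7 receptors in the 8 assigned libraries, by region and cohort (x axis). Points are libraries with their 95% Poisson interval, and thick lines are means of 2 libraries. Midbrain points lie above those of striatum for Ccr1, Ccr2, Ccr7, Cxcr2 and Cxcr4 in both cohorts. In a striatum library of the second cohort, however, the Poisson interval reaches 6.32 CPM for Ccr7 and 15 CPM for Cxcr4. Ccrl2 overlaps in the pilot cohort, and Cxcr6 lies near 0.

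Ccr2 (ENSMUSG00000049103.14, chromosome 9 of GRCm38, 124101950 to 124113557, plus strand, 3 exons) encodes the receptor of Ccl2 and related chemokines that draws monocytes out of the bone marrow and into tissue. In the pilot cohort it stood at 47.1 and 43.4 CPM in midbrain replicates 1 and 2 and at 12.7 and 14.8 CPM in striatum replicates 1 and 2. The second cohort gave 182 and 58.8 CPM in midbrain replicates 1 and 3 and 14.5 and 10.3 CPM in striatum replicates 1 and 3. The 4 striatum libraries were alike, every midbrain library lay above them, and midbrain replicate 1 of the second cohort stood far above the rest. The ratio of the means was 3.29 in the pilot cohort and 9.72 in the second. The log2 fold change of Ccr2 was 1.65 in the pilot cohort (SE 0.24, adjusted p = 0.105, called), 2.92 in the second (SE 0.70, adjusted p = 0.138, called) and 2.14 in the joint fit (SE 0.43, adjusted p = 0.042, called, limma). Its pilot call was the only one of the receptors to hold without any 1 of the 4 pilot libraries. The call in the second cohort was lost without striatum replicate 1 (log2 fold change 3.19) or striatum replicate 3 (2.82).

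Ccr1 (ENSMUSG00000025804.5, chromosome 9, 123962124 to 123968692, minus strand, 2 exons) encodes a receptor for Ccl3, Ccl5 and other inflammatory chemokines, carried by monocytes, neutrophils and further leukocytes. Pilot levels were 21.0 and 17.6 CPM in midbrain and 10.96 and 3.62 CPM in striatum. Levels of the second cohort were 112 and 54.6 CPM in midbrain and 13.4 and 8.57 CPM in striatum, the last of these resting on 5 counts. The regions did not overlap in either cohort, but the pilot striatum libraries differed from each other more than the pilot midbrain libraries did. Its log2 fold change was 1.68 in the pilot cohort (SE 0.44, adjusted p = 0.287, called), 2.66 in the second (SE 0.56, adjusted p = 0.082, called) and 2.17 in the joint fit (SE 0.42, adjusted p = 0.0367, called, limma). The pilot call of Ccr1 was lost without midbrain replicate 1 (log2 fold change 1.55), midbrain replicate 2 (1.79) or striatum replicate 2 (0.80), and with edgeR's quasi-likelihood test (1.42). The second cohort's call held without any 1 of its 4 libraries.

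Cxcr2 (ENSMUSG00000026180.8, chromosome 1, 74153989 to 74161246, plus strand, 2 exons) encodes the receptor of Cxcl1, Cxcl2 and related chemokines that recruits neutrophils. It stood at 25.8 and 18.4 CPM in pilot midbrain and at 7.37 and 9.80 CPM in pilot striatum. Levels were 56.6 and 52.0 CPM in midbrain of the second cohort and 17.4 and 6.86 CPM in its striatum, the last from 4 counts. The midbrain libraries of the second cohort were close to each other for this receptor, unlike for Ccr2. The regional log2 fold change was 1.27 in the pilot cohort (SE 0.33, adjusted p = 0.275, called), 1.93 in the second (SE 0.46, adjusted p = 0.127, called) and 1.56 in the joint fit (SE 0.27, adjusted p = 0.0261, called, limma). Without midbrain replicate 1 the pilot call of Cxcr2 was lost (1.04), and the call in the second cohort held without any 1 of its 4 libraries.

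Cxcr4 (ENSMUSG00000045382.6, chromosome 1, 128588199 to 128592293, minus strand, 2 exons) encodes the receptor of Cxcl12, which retains immature leukocytes in the bone marrow. Pilot levels were 24.7 and 16.0 CPM in midbrain and 2.84 and 7.23 CPM in striatum. They were 79.5 and 17.4 CPM in midbrain of the second cohort and 10.2 and 5.14 CPM in its striatum, the last at the floor of 3 counts. Both cohorts were free of overlap, yet midbrain replicate 1 of the second cohort held 4.58 times the level of replicate 3. Cxcr4 was called in the pilot cohort (log2 fold change 1.96, SE 0.47, adjusted p = 0.252), a call lost without midbrain replicate 1 (1.67). It was not called in the second cohort (2.08, SE 0.93, adjusted p = 0.46) or in the joint fit (2.04, SE 0.62, adjusted p = 0.151, limma), but was called in both with edgeR's quasi-likelihood test (2.46 and 2.19, adjusted p = 0.127 and 0.0365) and with DESeq2 (2.55 and 2.27, adjusted p = 0.0218 and 0.000342). Without midbrain replicate 3 of the second cohort, which left 1 midbrain library there, its log2 fold changes were 3.12 and 2.45 in these 2 fits.

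Ccr7 (ENSMUSG00000037944.8, chromosome 11, 99144196 to 99155077, minus strand, 3 exons) encodes the receptor that guides dendritic cells and lymphocytes along Ccl19 and Ccl21. It stood at 17.2 and 8.10 CPM in pilot midbrain and at 1.89 and 4.78 CPM in pilot striatum. It stood at 7.61 and 4.86 CPM in midbrain of the second cohort, from 36 and 21 counts, and no read was counted in either striatum library there. The floor of 3 counts lay at 1.09 CPM in striatum replicate 1 and at 5.14 CPM in striatum replicate 3 of that cohort, and the 95% Poisson limits of a count of 0 lay at 1.34 and 6.32 CPM. The midbrain mean was 2-fold the mean floor of 3.11 CPM, and the upper Poisson limit of striatum replicate 3 lay above that floor. The ratio to striatum thus has no firm lower bound here. The level of midbrain replicate 3 lay below the floor of striatum replicate 3, so the order of these libraries is not settled at this depth. Ccr7 was the only one of the 6 with a lower midbrain mean in the second cohort than in the pilot cohort, 6.23 ± 1.95 against 12.7 ± 6.45 CPM (SD, n = 2 each). Ccr7 was not called in the pilot cohort (log2 fold change 1.79, SE 0.58, adjusted p = 0.393, limma). It was called there without midbrain replicate 2 (2.34), striatum replicate 1 (1.25) or striatum replicate 2 (2.59), in fits that called 1.35%, 16.8% and 4.22% of all genes tested. The joint log2 fold change was 2.40 (SE 0.59, adjusted p = 0.0816, limma) and passed without midbrain replicate 2 or striatum replicate 2 of the pilot cohort (2.84 and 3.28, adjusted p = 0.0433 and 0.0399).

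Ccrl2 (ENSMUSG00000043953.12, chromosome 9, 111054486 to 111057519, minus strand, 3 exons) encodes an atypical receptor that binds chemerin, the product of Rarres2, and presents it without signalling of its own. It had the highest level per length of the 7 in every group, from 46.2 CPM per kb of exon in striatum to 152 in midbrain of the second cohort, while the other receptors ranged from 0 to 29.4 CPM per kb. Levels per length from a protocol that reads 3′ ends are approximate. Pilot levels were 174 and 212 CPM in midbrain and 111 and 186 CPM in striatum, so the regions overlapped. The second cohort gave 535 and 255 CPM in midbrain and 126 and 115 CPM in striatum, without overlap. Ccrl2 was not called in the pilot cohort (log2 fold change 0.38, SE 0.26, adjusted p = 0.598, limma), and the sign turned without striatum replicate 1 (-0.018). Without pilot striatum replicate 2, which left 1 library there, Ccrl2 had log2 fold changes of 0.79 in the pilot cohort and 1.24 jointly. It was called in the second cohort (1.59, SE 0.36, adjusted p = 0.111, limma), a call lost without striatum replicate 1 (1.65) or striatum replicate 3 (1.55). The joint fit gave 0.93 (SE 0.30, adjusted p = 0.168), not called.

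Cxcr6 (ENSMUSG00000048521.8, chromosome 9, 123806475 to 123811760, plus strand, 2 exons) encodes the receptor of Cxcl16, known from T and NK cells resident in tissue. A single read was counted in midbrain replicates 1 and 2 and in striatum replicate 1 of the pilot cohort, and 0 in the other 5 libraries. All 8 values lay under the floor, and no regional difference was detectable at this depth. The gene lies within the span of Fyco1 on the opposite strand and shares 0 exon bases with it, and no other receptor of the 7 overlaps an annotated gene.

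**Figure D2:**
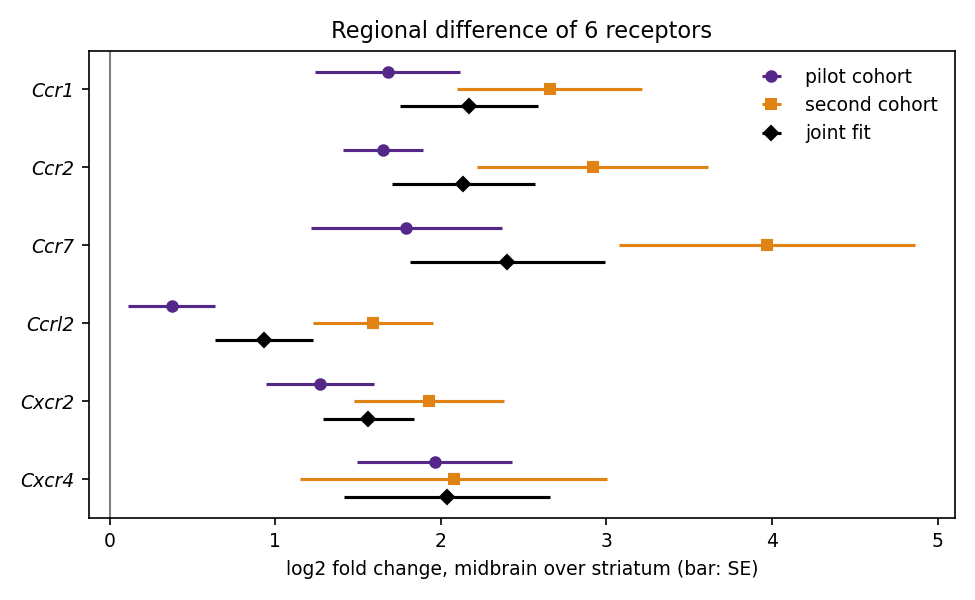
Log2 fold change of midbrain over striatum (x axis, bars are standard errors) for the 6 receptors tested (y axis), in the pilot cohort, the second cohort and the joint fit. All 18 estimates lie above 0; that of Ccr7 in the second cohort was fitted against striatum libraries with 0 reads and is no measure of size, and Ccrl2 in the pilot cohort lies closest to 0 at 0.38.

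Ordered by mean level, both midbrain groups lay above both striatum groups for Ccr1, Ccr2, Ccrl2, Cxcr2 and Cxcr4. The share of all genes with that order was not counted. The means of Ccr7 had the same order, but it is not settled at the depth of the second cohort's striatum. The second cohort's midbrain stood first for Ccr1, Ccr2, Ccrl2, Cxcr2 and Cxcr4, and the pilot midbrain stood first for Ccr7. The ranges of neighbouring groups overlapped between the 2 striatum groups for Ccr1, Ccr2, Ccrl2, Cxcr2 and Cxcr4, between the 2 midbrain groups for Cxcr4, and between pilot midbrain and pilot striatum for Ccrl2. Both midbrain libraries lay above both striatum libraries for 5 of the 6 receptors in the pilot cohort, all but Ccrl2, and for 5 in the second with Ccr7 left aside, where 23.4% and 24.2% of all genes tested did. They did so in both cohorts for Ccr1, Ccr2, Cxcr2 and Cxcr4, where 9.01% of the 14053 genes of the joint fit did. For these 4 genes an exact permutation test within cohorts, two-sided, gave p = 0.0556, the smallest that the 36 labelings allow, and for Ccrl2 it gave p = 0.111. The absence of overlap in both cohorts fixes that smallest value for the 4 genes, so it is no further support. Cxcr4 lay at the floor in striatum replicate 3 of the second cohort. No receptor passed the test of a regional change that differs between cohorts (limma's interaction term, adjusted p from 0.86 to 0.989), with differences of second minus pilot from 0.10 for Cxcr4 (SE 1.32) to 2.14 for Ccr7 (SE 1.17), the latter resting on the striatum libraries with 0 reads. No gene of 14053 passed that test, and 771 had an unadjusted p under 0.05.

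The number of joint calls changed with single libraries. Without pilot midbrain replicate 1, pilot striatum replicate 1, or striatum replicate 1 or 3 of the second cohort, 0 of the 6 receptors passed at the adjusted threshold (limma), and 0, 9, 0 and 3 genes of all tested did. The joint log2 fold changes of the 3 receptors called stayed between 1.87 and 2.57 for Ccr1, between 1.78 and 2.42 for Ccr2 and between 1.41 and 1.77 for Cxcr2 when each of the 8 libraries was left out in turn. In those 8 fits Ccr1 had an adjusted p under 0.05 in 2, Ccr2 in 3 and Cxcr2 in 4.

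Of the 7 genes, 4 lie on chromosome 9, 2 on chromosome 1 and 1 on chromosome 11. Cxcr6, Ccr1 and Ccr2 belong to a stretch of 435 kb from Ccr9 to Ccr2 that holds 7 receptor genes, while Ccrl2 lies 12.7 Mb away. Within it the genes of Ccr1 and Ccr2 are 133 kb apart, and those of Cxcr6 and Ccr1 150 kb. Ccr1l1, next to Ccr1, had no reads counted, and Ccr3, between Ccr1 and Ccr2, had at most 6 counts in any assigned library.

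**Figure D3:**
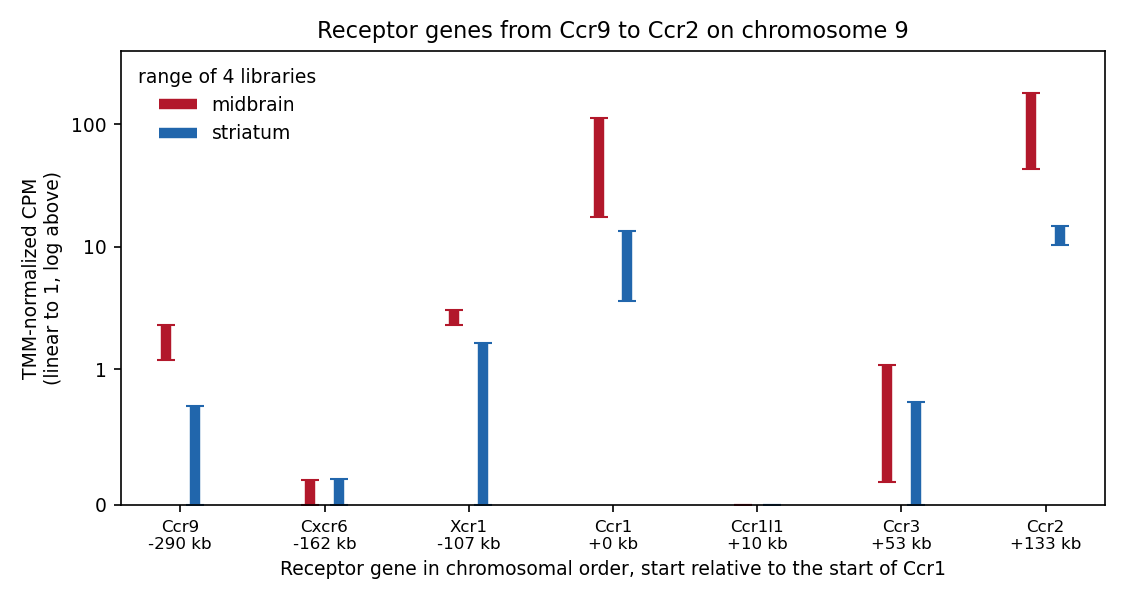
Range of TMM-normalized CPM over 4 midbrain and 4 striatum libraries (y axis, linear to 1 and logarithmic above) for the 7 receptor genes from Ccr9 to Ccr2 on chromosome 9, in order along the chromosome with the distance from the start of Ccr1 in kb (x axis). The regions are apart for Ccr1 and Ccr2, with midbrain higher, at 17.6 to 112 against 3.62 to 13.4 CPM for Ccr1. Ccr9 and Xcr1 lie under the 5.14 CPM floor of the shallowest striatum library in every library.

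Sequence upstream of the start sites is shown for Ccr1 and Cxcr2, which passed the joint test, and for Cxcr4, the only one of the 6 receptors with a matched entry to hold a TATA box. The 250 bases before each start come from RefSeq (GRCm38.p6) and are written 5′ to 3′ on the strand of the gene, with motif matches in capitals. They are chr9:123968693-123968942 on the minus strand for Ccr1, chr1:74153744-74153993 on the plus strand for Cxcr2 and chr1:128592300-128592549 on the minus strand for Cxcr4.
Ccr1: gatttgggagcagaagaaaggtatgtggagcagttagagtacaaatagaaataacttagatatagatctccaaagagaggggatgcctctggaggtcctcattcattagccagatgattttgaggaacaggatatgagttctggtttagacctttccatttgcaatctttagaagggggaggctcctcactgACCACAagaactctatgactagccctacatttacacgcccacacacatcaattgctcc
Cxcr2: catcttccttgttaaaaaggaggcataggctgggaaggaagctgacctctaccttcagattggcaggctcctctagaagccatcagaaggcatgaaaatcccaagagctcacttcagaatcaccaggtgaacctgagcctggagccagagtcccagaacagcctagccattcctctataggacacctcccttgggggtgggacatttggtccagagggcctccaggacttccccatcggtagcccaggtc
Cxcr4: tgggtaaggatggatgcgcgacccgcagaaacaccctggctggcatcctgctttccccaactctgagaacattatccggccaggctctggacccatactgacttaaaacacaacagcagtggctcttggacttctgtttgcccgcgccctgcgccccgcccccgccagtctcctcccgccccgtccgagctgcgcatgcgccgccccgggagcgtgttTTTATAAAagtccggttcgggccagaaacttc
Both strands were searched for 5 motifs, with N for any base. The letters of the TATA box were TATAAA. The motif bound by PU.1, a factor of the myeloid lineage, was searched as GAGGAAG. For AP-1, a factor of early activation, the letters were TGANTCA. C/EBP, a myeloid factor too, was searched as TTGCNNAA. RUNX factors, known from blood formation, were given the letters TGTGGT. The capitals in Ccr1 are a RUNX match on the opposite strand, 58 to 53 bases before the start, and those in Cxcr4 are 2 overlapping TATA matches, one on each strand, 32 to 25 bases before it. Cxcr2 held none of these letters, and among the other matched receptors Ccr2 and Ccrl2 held none and Cxcr6 held a RUNX match. Of all 32851 windows of this length, 14% hold the RUNX letters, 12.4% the TATA box, 10.6% PU.1, 9.56% C/EBP and 6.75% AP-1. GC content was 61.2% for Cxcr4, 54.4% for Cxcr2 and 43.6% for Ccr1, beside a median of 52.4% over all windows.

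Of 18 other chemokine receptors, 9 could be tested in the pilot cohort, 8 in the second and 7 in the joint fit, and 0 were called by limma in any of them. At an unadjusted p under 0.05 there were 2, 2 and 3, where 10.9%, 10.6% and 14.6% of all genes tested were. Their median log2 fold change was -0.10, 1.26 and 0.71 in the 3 fits. Cx3cr1, the fractalkine receptor that marks microglia, was among the most abundant of them, with 753 to 2680 CPM in midbrain and 1180 to 2860 CPM in striatum, and its joint log2 fold change was -0.34 (SE 0.17, adjusted p = 0.408, limma). Xcr1, a receptor of cross-presenting dendritic cells, had a joint log2 fold change of 2.68 (SE 0.75, adjusted p = 0.118) on at most 17 counts per library. Cxcr3 and Ccr9, receptors of effector and gut-homing T cells, followed at 1.36 (SE 0.46) and 1.602 (SE 0.54), both with an adjusted p of 0.201.

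Several ligands of the 7 receptors were called higher in the midbrain. Of 20 listed, 16 could be tested in the pilot cohort and 15 in each of the other fits. Of these, 3, 10 and 3 were called higher, where 2.09%, 2.88% and 0.975% of all genes were, and 0 were called lower. Cxcl3, 1 of the 3 of the pilot cohort, entered that fit only through its midbrain reads, with at most 0.117 CPM in striatum. It could not be tested in the other fits. The median log2 fold change of the ligands tested was 0.66, 1.58 and 0.71. Those that passed the joint test were Ccl5, a ligand of Ccr1 (2.43, SE 0.34, adjusted p = 0.0174, limma), Ccl12, a ligand of Ccr2 (2.09, SE 0.38, adjusted p = 0.031), and Cxcl2, a ligand of Cxcr2 (2.70, SE 0.55, adjusted p = 0.042). Ccl2, the main ligand of Ccr2, ranged from 477 to 1500 CPM in midbrain and from 164 to 506 CPM in striatum and did not pass (1.83, SE 0.40, adjusted p = 0.0578). Cxcl12, the ligand of Cxcr4, had a joint log2 fold change of 0.37 (SE 0.28, adjusted p = 0.587), and Cxcl16, the ligand of Cxcr6, one of 0.46 (SE 0.16, adjusted p = 0.21). Rarres2, the ligand of Ccrl2, changed by 0.08 (SE 0.31, adjusted p = 0.926). Ccl19 and Ccl21a, the ligands of Ccr7, had no reads counted in the 8 assigned libraries. Reads with several alignments were not counted, so a count of 0 does not show that these ligands were absent.

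**Figure D4:**
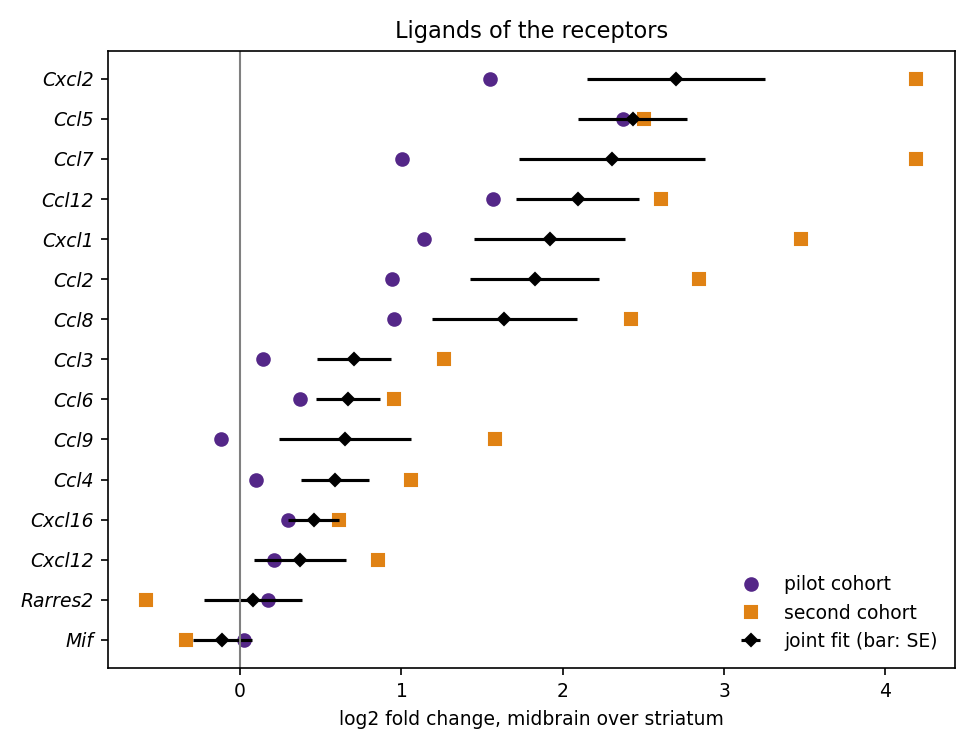
Log2 fold change of midbrain over striatum (x axis) for the 15 ligands tested in the joint fit (y axis, ordered by the joint value), with circles for the pilot cohort, squares for the second cohort and diamonds with standard errors for the joint fit. Cxcl2 and Ccl5 lie at the top at 2.70 and 2.43, and Rarres2 and Mif at the bottom near 0.

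Signalling partners of these receptors were tested too. They were 26 genes for G protein subunits, kinases, arrestins, regulators of G protein signalling (RGS) and the migration machinery. In the pilot midbrain 1 was called lower (Elmo1, an activator of Rac, -0.84), as were 0.548% of all genes. In the second cohort 1 was called higher (Rgs1, which shortens chemokine signals in lymphocytes, 2.14), as were 2.88% of all genes. None of the 26 passed the joint test, where 0.975% of all genes were called higher and 0.0854% lower. A list of 26 genes is too short to tell its counts from these shares. The median log2 fold change in the joint fit was 0.01, beside 0.04 over all genes. Rgs10 and Rgs19 had the smallest p, with joint log2 fold changes of -0.38 (SE 0.11, adjusted p = 0.129) and -0.44 (SE 0.13, adjusted p = 0.132).

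Many monocyte, neutrophil and border macrophage markers were called higher in the midbrain too. In the study's flow cytometry of aliquots, the bead-separated cells were mostly CD45-low CD11b-positive microglia with a small minority of CD45-high CD11b-positive cells, and T and B cells as a rule lack CD11b. Of 10 monocyte markers, 6 were called higher in the pilot midbrain, 7 in the second cohort and 2 in the joint fit, and their summed level was 285 to 364 CPM in pilot midbrain, 137 to 143 in pilot striatum, 745 to 3280 in midbrain of the second cohort and 154 to 285 in its striatum. Of 10 neutrophil markers, 7, 5 and 4 were called higher, with sums of 1120 to 1460, 844 to 878, 3970 to 6570 and 916 to 1000 CPM in the same order. Csf3r, which was not higher in midbrain jointly (-0.26), held a large part of the striatum sums. It stood at 350 to 491 CPM in midbrain and 411 to 601 in striatum. Of 8 markers of border macrophages, which line vessels and meninges, 7, 7 and 6 were called higher, with sums of 1750 to 2090, 907 to 1240, 2230 to 2810 and 579 to 665 CPM. None of the 28 markers in these 3 lists was at 0 in all 8 libraries, and none of them was called lower.

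T and NK cell markers numbered 12, of which 8 could be tested within each cohort and 7 jointly, and 3, 4 and 1 were called higher. Their sums were 90.7 to 114 CPM in pilot midbrain, 25.9 to 46.9 in pilot striatum, 157 to 315 in midbrain of the second cohort and 10.3 to 56.9 in its striatum. In striatum of the second cohort 4 of the 12 lay above the floor in replicate 1. In replicate 3 there, 0 lay above the floor and 8 had no reads. Nkg7, a granule gene of cytotoxic cells, passed the joint test (2.02, adjusted p = 0.0209, limma). Of the T cell genes, named here after their values were seen, Trbc2 and Lck had joint log2 fold changes of 2.06 (adjusted p = 0.0887, limma) and 0.98 (adjusted p = 0.487) on at most 23 and 53 counts. Cd3d, Cd3e, Cd3g, Trac and Cd8a could not be tested jointly, with at most 10, 1, 4, 13 and 6 counts in any assigned library. Of 8 dendritic cell markers, 1 was called higher and 1 lower in each cohort, and 0 higher and 1 lower in the joint fit, where their median log2 fold change was 0.83. The gene called lower there was Siglech, which is on the microglia list too and held most of the sum (671 to 1440 CPM in midbrain, 1140 to 2420 in striatum). The summed level was 809 to 978 CPM in pilot midbrain, 1240 to 1520 in pilot striatum, 1030 to 1610 in midbrain of the second cohort and 2060 to 2510 in its striatum. Of 7 B cell markers, 3 could be tested jointly and none was called. The summed level of the 7 was 641 to 701 CPM in midbrain and 707 to 876 in striatum. Ighm held most of that sum (577 to 660 CPM in midbrain, 650 to 818 in striatum). None of 7 endothelial markers was called in any fit. Microglia markers went the other way, with 2 of 12 called lower and 0 higher in the joint fit.

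Genes induced by tissue dissociation were higher in the second cohort's midbrain, at a summed 22000 to 24200 CPM against 11400 to 11900 in its striatum, and overlapped in the pilot cohort at 19100 to 22600 against 13700 to 22800 CPM. Of 12 such genes, 2 were called higher in the pilot cohort, 7 in the second and 2 in the joint fit. The part of any of these cell types or of dissociation in the receptor values was not tested.

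Within the midbrain of the second cohort, replicate 1 held 4.4 times the monocyte sum of replicate 3 and 1.65 times its neutrophil sum, and the ratio was 2.28 for the endothelial, 2.0 for the T and NK cell, 1.1 for the dissociation, 1.03 for the B cell, 0.812 for the microglia, 0.796 for the border macrophage and 0.644 for the dendritic cell sum. The same ratio of the libraries was 3.1 for Ccr2, 4.58 for Cxcr4, 2.1 for Ccrl2, 2.05 for Ccr1, 1.57 for Ccr7 and 1.09 for Cxcr2. In the pilot midbrain the receptor ratios of replicate 1 over replicate 2 lay between 0.823 for Ccrl2 and 2.13 for Ccr7, and the monocyte sum had a ratio of 1.28.

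**Figure D5:**
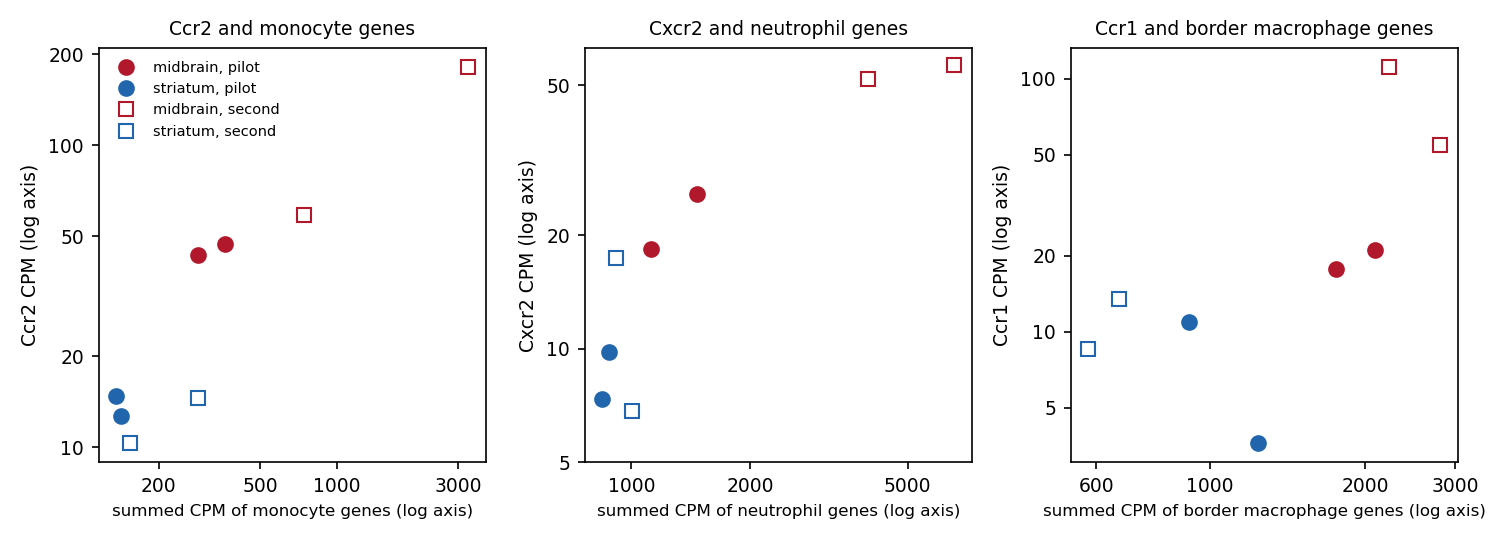
Level of Ccr2 against the monocyte marker sum, of Cxcr2 against the neutrophil sum and of Ccr1 against the border macrophage sum (all axes TMM-normalized CPM, logarithmic), 1 point per assigned library, circles for the pilot and squares for the second cohort, red for midbrain and blue for striatum. The highest monocyte sum, 3280 CPM, and the highest Ccr2 level, 182 CPM, belong to the same midbrain library, and no line was fitted.

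Likeness of pattern was measured as Pearson's r of log2 CPM over the 8 libraries among 12667 genes with a mean of at least 10 counts. The libraries share region, cohort and depth, so these values describe and carry no test. Between receptors r ranged from 0.384 for Ccr1 with Ccr7 to 0.941 for Ccr2 with Cxcr4, and the pairs with Ccr7 held the 5 lowest values, at most 0.69. Genes closest to Ccr1 were Clec4n (0.988), Mgst1 (0.98) and Anxa1 (0.978), a lectin receptor that is also on the border macrophage list, a glutathione transferase and an annexin. Those closest to Ccr2 were Fxyd5 (0.991), Rilpl2 (0.99) and Emp3 (0.985). Ccrl2 was closest to Rgs1 (0.994), Gch1 (0.994), which makes the cofactor biopterin, and Gdf15 (0.987), a stress-induced cytokine. Cxcr2 was closest to Nkg7 (0.985), which is on the T and NK cell list, Slpi (0.984), a protease inhibitor of neutrophils and epithelia, and Acod1 (0.977), which makes itaconate in activated macrophages. For Cxcr4 they were Il2rb (0.976), a receptor chain on the same list, Rplp2 (0.972) and Lrrc25 (0.97), and for Ccr7 they were Pgd (0.976), Clec2d (0.975) and Gypc (0.974).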

How the data were processed

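The authors prepared MARS-seq libraries, which read the 3′ ends of poly-A RNA, aligned the reads to GRCm38 with STAR (2.5.3a in the submitters' processing notes) and counted them over exons of Gencode M17 with featureCounts 1.6.0, without strand. Reads with several alignments or overlapping several genes were not counted. The deposited values are raw counts of 53715 genes per library, with no normalization, and were treated as read counts. Both regions came from the same mice, but the labels do not say which libraries share a mouse, so the fits are unpaired and p-values measure the spread between these libraries.

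A gene entered a fit when at least 50% of its libraries held at least 6 counts. TMM factors came from edgeR 4.0.16, and voom, lmFit and eBayes from limma 3.58.1 in R 4.3.3. Log2 CPM for likeness used a prior count of 2. The procedure was tested on simulated data with changes planted only in genes of higher mean count, so that test does not cover genes with few reads. The receptors and the lists were chosen with earlier results of these data known. Genes named are the 7 receptors, from each list of other receptors, ligands and signalling genes the 4 with the smallest joint p and all with an adjusted p under 0.05, and the 3 genes most like each receptor; neighbours on chromosome 9, ligands paired with a receptor and Cx3cr1 were added after their values were seen. Alternatives were DESeq2 1.42.0, edgeR's quasi-likelihood test, library size scaling, other filters, the replicate block, thinned counts, sample quality weights, each library left out and both placements of the 2 unassigned libraries. A result for 1 gene of the receptor list is not reported here.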

Additional observations from a re-analysis of the deposited data

Results flagged for a closer look

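The 2 libraries in no group also held receptor reads, which no comparison used. The library titled Mdb 2, whose file label names the striatum, had 1584013 counts in all. It held 24 counts of Ccr1, 17 of Ccr2, 301 of Ccrl2, 21 of Cxcr2 and 20 of Cxcr4, which are 15.3, 10.8, 192, 13.4 and 12.7 CPM with TMM factors over all 10 libraries. Ccr7 had 1 count there and Cxcr6 had 0. The library titled Str 2, whose file label names the midbrain, had 5194739 counts in all. It held 338 counts of Ccr1, 317 of Ccr2, 20 of Ccr7, 1057 of Ccrl2, 299 of Cxcr2 and 101 of Cxcr4, which are 64.3, 60.3, 3.80, 201, 56.9 and 19.2 CPM. Cxcr6 had 1 count. The counts above 3 were flagged because they exceed that limit in data outside the comparisons, and the values were not used to settle the region of either library.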

How the results depend on the processing

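In the pilot cohort, 4 receptors were called as reported and 4 or 5 under the alternatives that kept all libraries. Those alternatives called 2.4% to 3.42% of all genes tested, in either direction. With edgeR's quasi-likelihood test Ccr1 lost its pilot call and Ccr7 gained one. Leaving out 1 library gave 1 to 5, with 1 without midbrain replicate 1. In the second cohort, 5 were called as reported and 6 with edgeR's quasi-likelihood test or DESeq2 (Cxcr4 was added). These 2 alternatives called 3.99% and 3.29% of all genes tested, in either direction. With thinned counts 4 of 5 tested were called, beside 3.46% of all genes. When at least 10 counts were required in every library, 1 was called (only Ccrl2 could then be tested), beside 2.9%. With the unassigned libraries placed by title 0 were called, beside 0.996% of all genes. With them placed by file label 5 were called, beside 5.22%. The number also changed when 1 library was left out. In the joint fit, 3 were called as reported, 6 with DESeq2, 5 with sample quality weights, 4 with edgeR's quasi-likelihood test, 1 with counts thinned to the smallest library (of 5 tested), 0 at 10 counts in every library (of 1 tested), 0 with placement by title, 4 with placement by file label, and 0 to 4 without 1 library. The interaction called 0 receptors in each of the 13 settings in which it was run, which leave out DESeq2, the block, thinning and the placements.

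Whether the replicate numbers in the titles mark the mouse is not known. The deviations of same-numbered libraries correlated at -0.03 in the pilot cohort and 0.09 in the second, over 2 pairs each, too few to tell whether the numbers pair the libraries. With the replicate block, 4 receptors were called in the pilot cohort, 6 in the second and 4 in the joint fit, and 401, 988 and 308 genes in all, beside 395, 468 and 149 without it. The additional calls were Cxcr4, at log2 fold changes of 2.64 in the second cohort and 2.24 in the joint fit (adjusted p = 4.57e-05 and 0.0186, limma).

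Signs turned for Ccrl2 in the pilot cohort without striatum replicate 1 (range over left-out libraries -0.018 to 0.791) and for the Cxcr4 interaction without pilot midbrain replicate 2 (-0.20), pilot striatum replicate 2 (-0.68), second midbrain replicate 1 (-0.95) or second striatum replicate 3 (-0.06), within a range of -0.951 to 1.231; the cause was not tested. All genes called in the joint fit numbered 554 with DESeq2, 412 with quality weights, 440 with placement by file label, 277 with no filter, 237 with edgeR, 57 at 10 counts in every library and 0 with placement by title. In the pilot cohort no filter gave 822, and in the second cohort 10 counts in every library gave 204 and placement by title 132. Where leaving out a library left 1 in its group, that library was assumed to vary like the others. Depth limits Cxcr6 in every library and Ccr7 in the striatum of the second cohort. It also limits Ccr1, Ccr2, Cxcr2 and Cxcr4 in striatum replicate 3 of that cohort, where they held 5, 6, 4 and 3 counts.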
